A study of Mus musculus with 6 samples.

Results

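The genes described here are 10 genes of the NRF2 pathway (Nfe2l2, Keap1, Gclc, Gclm, Slc7a11, Gsr, Txnrd1, Srxn1, Nqo1 and Hmox1), chosen by name from the 16281 genes of a count table of mouse CD8+ T cells. The cells came from spleens of OT1 mice, which carry the transgene Tg(TcraTcrb)1100Mjb on the C57BL/6 strain, so that most of their CD8+ T cells bear 1 T-cell receptor against an ovalbumin peptide. Every culture was stimulated for 48 h through CD3 (plate-bound antibody) and CD28 (soluble antibody) in the presence of IL-2, and IL-2 alone then drove 3 days of expansion. The study's medium for mouse CD8+ T cells also contained β-mercaptoethanol, a reducing agent. In 3 cultures GSK2879552 (GSK) was present at 0.5 μM through activation and expansion, and 3 cultures received vehicle (Veh). GSK is an irreversible inhibitor of the histone demethylase LSD1, and the study states that the cells came from 3 separate OT1 mice, whose age is not given in the sources used here. Both groups were activated and expanded in culture, so all levels are those of cultured, expanded cells.

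NRF2, encoded by Nfe2l2, is the main transcription factor of the antioxidant response. In resting cells KEAP1 binds NRF2 and hands it to a ubiquitin ligase, so that NRF2 is degraded. Oxidants and electrophiles modify cysteines of KEAP1, NRF2 then accumulates, pairs with a small MAF protein and binds antioxidant response elements (AREs) near genes of glutathione synthesis, thioredoxin recycling, NADPH supply and quinone or heme detoxification. Because this control acts on the NRF2 protein, its RNA is not a measure of its activity. Activated T cells depend on glutathione and thioredoxin to buffer oxidants while they grow.

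Of the 10 genes, 6 were higher in GSK than in Veh and 0 were lower when adjusted p-values under 0.05 were called (edgeR's quasi-likelihood test, Benjamini-Hochberg adjustment over 11698 genes). Among all genes tested, 16.6% were higher and 15.5% lower by the same rule, 32.1% in either direction. At an unadjusted p under 0.05, 1 gene, Slc7a11, was lower, and DESeq2 also called 0 lower. The 6 genes were Nfe2l2 itself, Gclc, Gsr, Txnrd1, Srxn1 and Nqo1, and 1 of them, Nqo1, was also past a fold change of 1.5, as 2.22% of all genes were in that direction, 4.09% in the other and 6.32% in either. In the same 6 genes all GSK samples lay above all Veh samples, as in 23.7% of all genes, and in 0 of the 10 all GSK samples lay below, as in 23% (46.7% in either direction). Keap1, Hmox1, Gclm and Slc7a11 did not pass. The median log2 fold change of the 10 genes was 0.30, and that of all genes tested was -0.0039. Without GSK replicate 2, 2 genes were past the fold change of 1.5, and without Veh replicate 1, Slc7a11 passed the test as lower in GSK.

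Library totals ranged from 18288447 to 18918811 counts in Veh and from 19149909 to 19846720 in GSK, so that a CPM of 1 corresponded to between 18.4 and 19.8 reads. CPM is the count scaled to the sample's total after edgeR's TMM normalization. Replicates of a group differed by more than sampling noise (a chi-square of 4.08 to 9.42 per degree of freedom, highest between GSK replicates 2 and 3). All 7 CD8 T cell markers were tested. Their summed level was 2333 to 2466 CPM in Veh and 2158 to 2314 CPM in GSK. Of these markers, 4 were lower and 1 higher at an adjusted p under 0.05 (all genes: 15.5% and 16.6%). Cd3d, Cd3e, Cd3g and Cd5 fell by 0.16, 0.23, 0.38 and 0.50 on the log2 scale (adjusted p = 0.011, 0.0015, 6.0e-05 and 0.0011, edgeR). Cd2 rose by 0.15 (adjusted p = 0.026, edgeR), and Cd8a and Cd8b1 did not pass. Cd8a had 516 ± 18.96 CPM in Veh against 541 ± 13.1 CPM in GSK (SD, n = 3; adjusted p = 0.20, edgeR). Markers of other cells were measured as well. Of the B cell markers, Cd79b had 6.51 ± 1.02 CPM in Veh against 4.90 ± 0.24 CPM in GSK (SD, n = 3; edgeR adjusted p = 0.070), and Ms4a1 was at most 0.417 CPM in any sample. The 7 listed of 8 myeloid markers summed to 10.1 to 15.5 CPM in Veh and 9.96 to 13.2 CPM in GSK, mostly Cd68, with Adgre1 and Mpo near 0. The 7 erythroid markers summed to at most 0.574 CPM in any sample, and the 5 markers of CD4 T and NK cells to 45.4 to 54.4 CPM in Veh and 42.9 to 47.9 CPM in GSK, mostly Zbtb7b, with Ncr1 near 0. The part of these levels in the results was not tested. In such bulk RNA, fewer cells that express a gene and less RNA per cell cannot be told apart.

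Short stretches of promoter are shown for the genes whose windows hold an ARE-like motif, because AREs are the sites through which NRF2 acts. RefSeq windows of GRCm38.p6, from 250 bases before to 50 after a gene's start, were at hand for 7 of the 10 genes, and Gclc, Gsr and Hmox1 had none. The letters TGACNNNGC and TGAGNNNGC were searched on both strands. Of the 7 genes, 5 held at least 1 match, and so did 35.8% of the 9404 tested genes with a window. Of the 91 other genes of the wider lists described below that had a window, 31 held a match (34.1%). Matches are given 5′ to 3′ on the strand of the gene with the match in capitals.
Nfe2l2, chr2:75704885-75704913, minus strand, 236 bases before the start: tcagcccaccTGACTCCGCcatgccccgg
Gclm, chr3:122245413-122245441, plus strand, 130 bases before the start: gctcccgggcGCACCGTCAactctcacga
Txnrd1, chr10:82859104-82859132, plus strand, 88 bases before the second of 3 starts: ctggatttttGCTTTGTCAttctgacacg
Slc7a11, chr3:50443692-50443720, minus strand, 93 bases before the start: taatgttggcGCTTTCTCAagctggagtt
Srxn1, chr2:152105356-152105384, plus strand, 154 bases before the start: tctactgagaGCCGACTCAtcctctctgg
Srxn1, chr2:152105469-152105497, plus strand, 41 bases before the start: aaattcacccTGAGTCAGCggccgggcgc
Srxn1, chr2:152105542-152105570, plus strand, 32 bases past the start: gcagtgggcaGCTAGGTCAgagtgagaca

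The Srxn1 window held 3 of these matches, and the one 41 bases before the start also contains the AP-1 motif TGACTCA, read on the other strand. A match of this joint form (TGACTCAGC or TGAGTCAGC) stood in the windows of 0.989% of the tested genes, and the AP-1 motif alone in 4.52%. The 250 bases before the Srxn1 start, chr2:152105274-152105523 on the plus strand, are shown whole because the window also holds a second AP-1 motif, 99 bases before the start. Capitals mark both kinds of motif.
Srxn1: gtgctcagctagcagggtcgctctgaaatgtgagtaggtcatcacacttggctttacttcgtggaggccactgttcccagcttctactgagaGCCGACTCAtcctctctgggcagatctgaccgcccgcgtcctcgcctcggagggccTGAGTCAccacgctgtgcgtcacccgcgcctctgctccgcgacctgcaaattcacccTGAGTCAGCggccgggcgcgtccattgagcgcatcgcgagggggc
The windows of Nqo1 and Keap1 held no match with these letters. Of the genes with a match, Nfe2l2, Txnrd1 and Srxn1 were higher in GSK and Gclm and Slc7a11 did not pass, and binding was not analysed here. The search was widened to TGAGNNNGC after the first matches had been seen.

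Nfe2l2 (Entrez gene 18024), which encodes NRF2, lies on the minus strand of chromosome 2 from 75675513 to 75704641. Its RNA was 70.1, 70.7 and 63.4 CPM in Veh replicates 1 to 3 and 84.3, 73.0 and 84.0 CPM in GSK replicates 1 to 3. All GSK samples lay above all Veh samples, but GSK replicate 2 was close to the highest Veh sample. Nfe2l2 rose by 0.24 ± 0.066 (SE) on the log2 scale, or 1.18-fold, with an adjusted p of 0.014 by edgeR. This was the smallest rise of the 6, and the call rested on single samples: the adjusted p was 0.074 without Veh replicate 3 and 0.084 without GSK replicate 1.

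Keap1 (Entrez gene 50868), the inhibitor of NRF2, lies on the minus strand of chromosome 9 from 21229730 to 21239361. Its RNA was 92.8, 104 and 96.3 CPM in Veh against 101.1, 92.5 and 88.0 CPM in GSK. The groups overlapped, and the log2 fold change was -0.056 with a 95% interval from -0.19 to 0.074 (adjusted p = 0.51, edgeR), inside the 1.5-fold thresholds. The antisense gene Gm16754 shares 510 exonic bases with Keap1 on the other strand, and whether the counting used the strand is not stated, so reads there are uncertain.

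**Figure D1:**
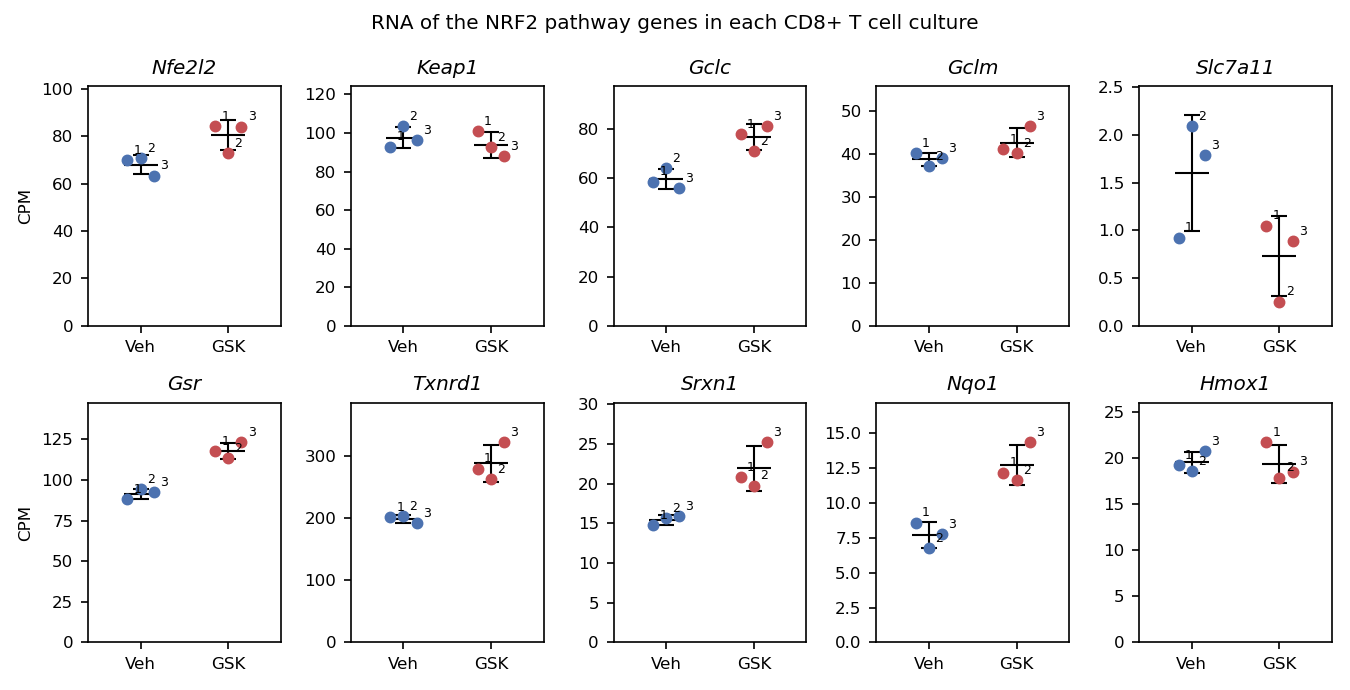
CPM (vertical axes, each from 0) of the 10 NRF2 pathway genes in 3 Veh (blue) and 3 GSK (red) cultures, with points numbered by replicate and bars for mean ± SD. In Nfe2l2, Gclc, Gsr, Txnrd1, Srxn1 and Nqo1 all red points lie above all blue points, while in Keap1, Gclm, Slc7a11 and Hmox1 the groups overlap.

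Glutathione is made from glutamate, cysteine and glycine, and its first and limiting step is carried out by glutamate-cysteine ligase, whose catalytic subunit is encoded by Gclc and whose modifier subunit is encoded by Gclm. Gclc (Entrez gene 14629, chromosome 9, 77754535 to 77794485, plus strand) measured 58.5, 64.05 and 56.0 CPM in Veh against 77.7, 71.1 and 81.1 CPM in GSK. Every GSK sample was above every Veh sample, and Gclc rose by 0.36 ± 0.065 (SE) on the log2 scale, or 1.29-fold (adjusted p = 0.0012, edgeR). It stayed past the threshold when each sample was left out, with log2 fold changes from 0.32 to 0.42.

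Gclm (Entrez gene 14630, chromosome 3, 122245557 to 122270732, plus strand) measured 40.2, 37.2 and 39.1 CPM in Veh against 41.2, 40.2 and 46.6 CPM in GSK. GSK replicate 2 lay just below Veh replicate 1, and GSK replicate 3 was highest. The log2 fold change of 0.14 had a 95% interval from -0.017 to 0.29 (adjusted p = 0.16, edgeR) and was 0.066 without GSK replicate 3. The pseudogene Gm6061 on the same strand shares 244 exonic bases with Gclm and the transcript Gm17494 on the other strand shares 296, so reads there are uncertain, and 5.61% of its 31-base stretches recur in transcripts of other genes. The difference between the fold changes of Gclc and Gclm was not tested.

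Slc7a11, the cystine importer subunit that brings in the cysteine for glutathione, was barely detected. It lies on the minus strand of chromosome 3 from 49892526 to 50443614 (Entrez gene 26570) and had 17, 39 and 34 reads in Veh and 20, 5 and 17 reads in GSK, or 0.925, 2.09 and 1.79 CPM against 1.05, 0.253 and 0.886 CPM. The groups overlapped, since GSK replicate 1 was above Veh replicate 1. Its log2 fold change was -1.14 with a 95% interval from -2.12 to -0.15 before adjustment, and the adjusted p was 0.075 (edgeR), 0.091 with DESeq2 and 0.044 without Veh replicate 1, when the log2 fold change was -1.41. Slc7a11 was thus the sole gene of the 10 with a negative estimate past 1.5-fold, at a depth of at most 39 reads.

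Gsr encodes glutathione reductase, which uses NADPH to return oxidised glutathione to its reduced form. It lies on the plus strand of chromosome 8 from 33652523 to 33698163 (Entrez gene 14782). Its RNA was 88.2, 94.1 and 92.4 CPM in Veh and 118, 113 and 123 CPM in GSK, with no overlap. Gsr rose by 0.37 ± 0.049 (SE) on the log2 scale, and its adjusted p of 1.8e-04 (edgeR) was the smallest of the 10 genes. The 3 genes whose log2 CPM over the 6 samples was most like that of Gsr were Flvcr1 (Pearson r = 0.9995), a heme exporter, Rxra (0.9991), a nuclear receptor, and the peroxiredoxin Prdx1 (0.9986). These r values rest on 6 points that fall into the 2 groups.

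Txnrd1, the cytosolic thioredoxin reductase that recharges thioredoxin with NADPH, was among the genes that rose. It lies on the plus strand of chromosome 10 from 82833951 to 82897712 (Entrez gene 50493) and had 202, 204 and 192 CPM in Veh against 280, 263 and 322 CPM in GSK. All GSK samples lay above all Veh samples. Txnrd1 rose by 0.53 ± 0.067 (SE) on the log2 scale, or 1.45-fold (adjusted p = 2.2e-04, edgeR). Leaving out each sample gave log2 fold changes from 0.44 without GSK replicate 3 to 0.59 without GSK replicate 2.

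Srxn1 encodes sulfiredoxin, which repairs peroxiredoxins whose active cysteine has been over-oxidised. The Srxn1 promoter shown above is counted from the RefSeq start, so its last bases lie inside the GENCODE coordinates given here. Srxn1 lies on the plus strand of chromosome 2 from 152105516 to 152111376 (Entrez gene 76650). Its RNA was 14.7, 15.6 and 15.9 CPM in Veh and 20.8, 19.7 and 25.2 CPM in GSK, so that the Veh samples lay close together and GSK replicate 3 stood highest. Srxn1 rose by 0.51 ± 0.10 (SE) on the log2 scale, or 1.42-fold (adjusted p = 0.0022, edgeR), and by 0.39 without GSK replicate 3.

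Nqo1, the quinone reductase that is widely used as a readout of NRF2, showed the largest rise of the 10 genes. It lies on the minus strand of chromosome 8 from 107388225 to 107403206 (Entrez gene 18104) and had 8.59, 6.76 and 7.78 CPM in Veh and 12.2, 11.6 and 14.3 CPM in GSK, from 126 to 158 reads against 230 to 275. All GSK samples lay above all Veh samples. Nqo1 rose by 0.72 ± 0.13 (SE) on the log2 scale, or 1.65-fold (95% interval 0.44 to 1.00 on that scale, adjusted p = 0.0012, edgeR). The log2 value ranged from 0.62 to 0.81 when each sample was left out and stayed past both thresholds. Tested against a fold change of 1.5 itself, it did not pass (adjusted p = 1).

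Hmox1 encodes heme oxygenase 1, which breaks down heme and is controlled by NRF2 and by the repressor BACH1. It lies on the plus strand of chromosome 8 from 75093621 to 75100589 (Entrez gene 15368). Its RNA was 19.3, 18.6 and 20.8 CPM in Veh and 21.7, 17.9 and 18.6 CPM in GSK, with both the highest and the lowest value in GSK. For Hmox1 the log2 fold change was -0.012, with a 95% interval from -0.21 to 0.19 (adjusted p = 0.93, edgeR). The interval does not reach the 1.5-fold thresholds.

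**Figure D2:**
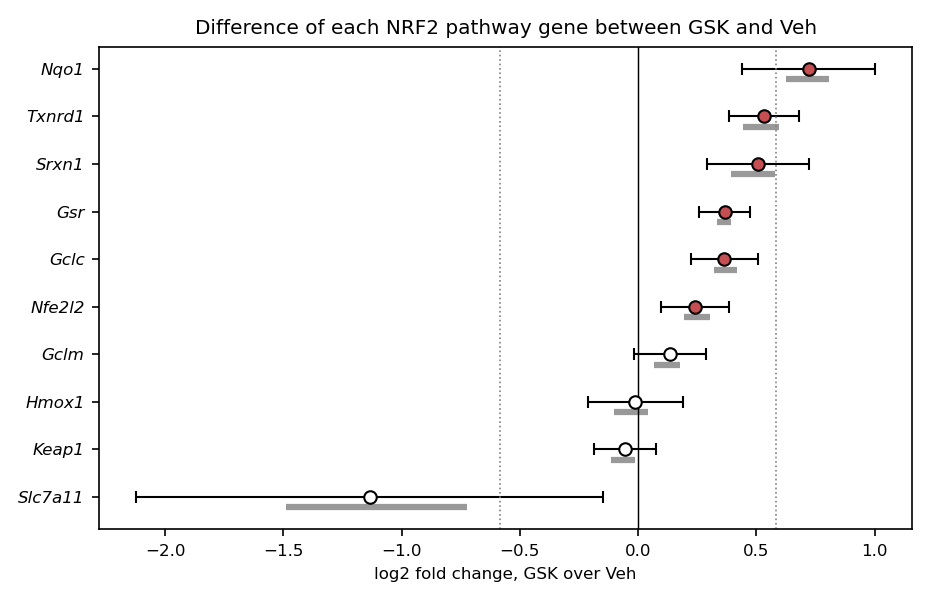
Log2 fold change of GSK over Veh (horizontal axis) for each NRF2 pathway gene, with 95% intervals as error bars and, in grey below each, the range when each of the 6 samples is left out. Filled points passed an adjusted p of 0.05, dotted lines mark a fold change of 1.5, and Nqo1 is the filled point beyond it while Slc7a11 has the widest interval.

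The 6 genes that rose had a similar order of samples within GSK. GSK replicate 2 was the lowest GSK sample in 6 of 6 and GSK replicate 3 the highest in 5 of 6. In Veh, replicate 2 was the highest in 4 of 6. With the group means removed, Pearson r over the 6 samples was 0.85 between Txnrd1 and Srxn1, 0.88 between Srxn1 and Gsr and 0.87 between Nfe2l2 and Gclc, but 0.031 between Nqo1 and Gclc. These are descriptions over 6 points that share libraries. The share of all genes with this order of GSK samples was not counted. Without GSK replicate 2, calls among all genes at the adjusted p rose from 1941 to 2090 higher and from 1819 to 2013 lower. Leaving out any other sample lowered both numbers. Whether the order is particular to the 6 genes or shared across the libraries was not tested.

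Levels can be compared between genes only per length, here as CPM per exonic kilobase of the GENCODE M21 annotation. In Veh, Gsr was the highest of the 10 with 33.2 ± 1.11 (SD, n = 3), followed by Txnrd1 with 28.1 ± 0.93 and Keap1 with 20.8 ± 1.17. Nfe2l2 had 17.9 ± 1.06, Gclc 15.8 ± 1.09 and Hmox1 11.2 ± 0.64. Gclm had 6.17 ± 0.24, Srxn1 5.46 ± 0.21, Nqo1 4.97 ± 0.59 and Slc7a11 0.115 ± 0.043. The samples of the neighbours Nfe2l2 and Gclc overlapped, as did those of Srxn1 and Nqo1, so their spread did not separate these pairs. In GSK, the samples of Gsr (42.9 ± 1.77) and Txnrd1 (40.7 ± 4.29) overlapped. Those of Nfe2l2 (21.2 ± 1.70), Gclc (20.4 ± 1.36) and Keap1 (20.0 ± 1.43) overlapped as well, so that Keap1 no longer stood above the other two. The mean of Nqo1 (8.19 ± 0.92) lay above that of Gclm (6.78 ± 0.54) in GSK and below it in Veh. Per kilobase in Veh, genes of the wider lists lay both above the 10, such as Txn1 with 344 ± 14.05 and Prdx1 with 146 ± 6.59, and among them, such as Prdx2 with 31.2 ± 1.39 and Txn2 with 19.4 ± 0.24 (SD, n = 3).

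**Figure D3:**
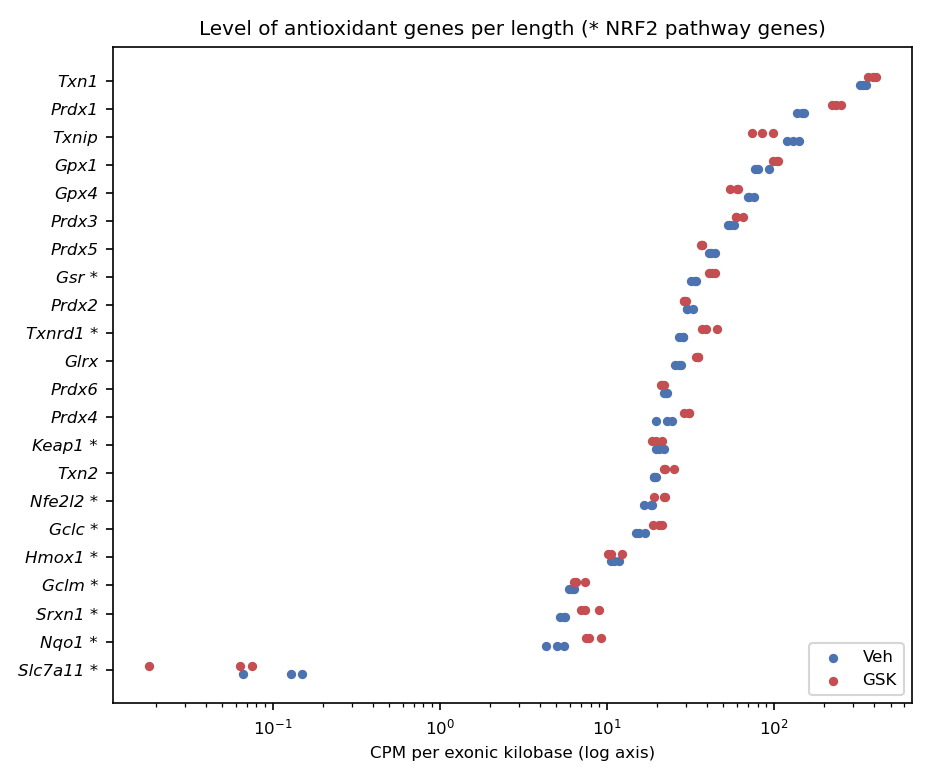
CPM per exonic kilobase (horizontal log axis) of the 10 NRF2 pathway genes (starred) and of 12 peroxiredoxin, thioredoxin and glutathione genes, 1 point per culture in Veh (blue) and GSK (red). Txn1 and Prdx1 are the highest, most starred genes lie between about the levels of Nqo1 and Gsr, and Slc7a11 is far below the rest.

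Around these 10 genes stand 9 lists of the wider pathway with 113 other genes, of which 100 were tested. Of these 100, 22 were higher in GSK and 18 lower at an adjusted p under 0.05, or 22% and 18%, near the 16.6% and 15.5% of all genes tested, and their median log2 fold change was 0.035. The number higher fell to 12 without Veh replicate 1 and to 13 without GSK replicate 1, when all genes also gave fewer (1377 and 1288, against 1941). Past the fold change of 1.5 as well, 1 was higher (Prdx1) and 6 were lower (Mgst2, Mgst3, Txnip, Sesn1, Ncf1 and Nupr1), where all genes gave 2.22% and 4.09%. The number lower was 4 without Veh replicate 1. Txnip then came to -0.54 on the log2 scale and Sesn1 to -0.58, both short of 1.5-fold. Txnip was also short of it without GSK replicate 3 (-0.51) and Sesn1 without Veh replicate 3 (-0.58) or GSK replicate 1 (-0.55), and both stayed past the adjusted p in these fits. The number higher was 2 without Veh replicate 1, GSK replicate 1 or GSK replicate 3.

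The list of thioredoxins and peroxiredoxins had, besides Txnrd1 and Srxn1, 6 of 15 tested genes higher and 2 lower (all genes: 16.6% and 15.5%). Peroxiredoxins reduce hydrogen peroxide with electrons from thioredoxin. For Prdx1 (chromosome 4, 116685544 to 116700822), a cytosolic substrate of sulfiredoxin, RNA was 421, 460 and 449 CPM in Veh against 718, 676 and 771 CPM in GSK. It rose by 0.70 ± 0.050 (SE) on the log2 scale (adjusted p = 2.6e-06, edgeR), a larger rise than in 9 of the 10 NRF2 pathway genes. Its window also holds the joint ARE and AP-1 motif, shown because Srxn1 has it too, 129 bases before the start on the plus strand at chr4:116685456-116685484 of GRCm38.p6.
Prdx1: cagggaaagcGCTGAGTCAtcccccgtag
Of the wider lists, the windows of Gstp1, Me1, Osgin1 and Pir also held the joint motif. Gstp1 was higher in GSK (log2 fold change 0.22, adjusted p = 0.049, edgeR). It had 46.8, 47.7 and 44.3 CPM in Veh against 49.6, 50.8 and 61.7 CPM in GSK, with GSK replicate 3 highest. Of its 31-base stretches, 38.5% recur in transcripts of other genes. Me1, Osgin1 and Pir did not pass (adjusted p of 0.27, 0.95 and 0.18, edgeR), and a link between motif and change was not tested. Of all the stretches of 31 bases in the Prdx1 transcripts, 15.2% occur in transcripts of other genes, so part of the Prdx1 reads could be assigned otherwise.

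Prdx4, the peroxiredoxin of the endoplasmic reticulum, also rose (log2 fold change 0.44, edgeR, adjusted p = 9.1e-04), from 47.2 ± 5.07 CPM in Veh to 63.9 ± 2.73 CPM in GSK (SD, n = 3). The mitochondrial thioredoxin Txn2 rose from 81.4 ± 0.99 to 97.1 ± 7.55 CPM, and the cytosolic Txn1 from 362 ± 14.7 to 410 ± 20.5 CPM, by 0.18 on the log2 scale (adjusted p = 0.010, edgeR, and 0.053 and 0.056 without Veh replicate 1 and GSK replicate 1). Txnip, which binds and blocks thioredoxin, fell from 408 ± 33.9 CPM in Veh to 269 ± 40.3 CPM in GSK (-0.60 on the log2 scale, edgeR adjusted p = 0.016). The antisense gene Gm15441 shares 606 exonic bases with Txnip. Prdx5 fell by 0.20 on the log2 scale (adjusted p = 0.0092, edgeR), and 0.052 without Veh replicate 3, in a gene that shares 409 exonic bases with Trmt112 on the other strand.

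In the list of glutathione use and recycling, besides Gsr, 5 of 17 tested genes were higher and 3 lower (all genes: 16.6% and 15.5%). The glutaredoxins, which remove glutathione from proteins or carry iron-sulfur clusters, were higher in 3 cases. Glrx rose from 147 ± 5.83 to 191 ± 1.82 CPM (SD, n = 3), by 0.37 on the log2 scale (edgeR adjusted p = 7.0e-05). Glrx5 rose by 0.30 and Glrx3 by 0.23 on the log2 scale, and 17.6% of the 31-base stretches of Glrx3 recur in other transcripts. The membrane-bound enzymes Mgst2 and Mgst3 fell by 0.78 and 0.83 on the log2 scale (adjusted p = 1.4e-04 and 0.0058, edgeR). Mgst2 went from 61.6, 49.2 and 59.7 CPM to 29.9, 36.0 and 33.6 CPM. Gpx4, which protects lipids from peroxidation, fell from 125 ± 6.42 to 100.8 ± 6.08 CPM (-0.31 on the log2 scale, edgeR adjusted p = 0.0013), but 38.9% of its 31-base stretches recur in other transcripts.

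In the list of glutathione synthesis, besides Gclc, Gclm and Slc7a11, 1 of 6 tested genes was higher and 1 lower (all genes: 16.6% and 15.5%). Ggct, an enzyme of glutathione turnover, rose from 15.9 ± 0.049 to 23.8 ± 1.85 CPM (SD, n = 3), by 0.58 on the log2 scale (edgeR adjusted p = 2.9e-04). Chac2, which degrades glutathione, fell by 0.51 on the log2 scale (adjusted p = 0.026, edgeR), a call lost without Veh replicate 2 or 3 or GSK replicate 1 or 3 (adjusted p from 0.056 to 0.091) and with DESeq2 (0.057). Among the regulators of NRF2 besides Nfe2l2 and Keap1, 1 of 10 was higher and 1 lower, by the same shares of all genes (16.6% and 15.5%). These were the small MAF gene Mafk (log2 fold change 0.25, adjusted p = 0.029, edgeR) and Sqstm1, whose protein p62 draws KEAP1 into autophagy (-0.14, adjusted p = 0.029). Both calls were lost without Veh replicate 3 (0.13 and 0.14) and without GSK replicate 1 (0.15 and 0.11), that of Mafk also without Veh replicate 1 (0.088) and that of Sqstm1 without Veh replicate 2 (0.052). Mafk shares exonic bases with Tmem184a and Sqstm1 with Mrnip, both on the other strand.

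In the list of NADPH supply, 6 of 16 genes were higher and 3 lower (all genes: 16.6% and 15.5%), all by less than 1.5-fold. Mthfd1, of the cytosolic folate pathway, rose from 104 ± 4.03 to 150 ± 12.2 CPM (SD, n = 3), by 0.52 on the log2 scale (edgeR adjusted p = 6.3e-05). Pgd, of the pentose phosphate pathway, rose by 0.17 on the log2 scale (adjusted p = 0.014, edgeR, and 0.068 and 0.066 without Veh replicate 1 and GSK replicate 1), while Idh1 fell by 0.31 and Me2 by 0.19. The number higher in this list was 1 without Veh replicate 1, 2 without GSK replicate 1 and 3 without GSK replicate 3.

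In the list of heme, iron and quinone detoxification, besides Nqo1 and Hmox1, 2 of 15 tested genes were higher and 2 lower (all genes: 16.6% and 15.5%). Akr1b3, an aldose reductase, rose by 0.24 on the log2 scale (adjusted p = 0.0015, edgeR) and Ugdh, which supplies UDP-glucuronate, fell by 0.23 (adjusted p = 0.0039). The biliverdin reductases, which act after heme oxygenase, went opposite ways with Blvra higher (0.21, adjusted p = 0.049, edgeR) and Blvrb lower (-0.52, adjusted p = 0.041). Both calls were lost with DESeq2 (0.11 and 0.092) and without any of several single samples, with adjusted p up to 0.17 for Blvrb and 0.175 for Blvra.

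The list of superoxide dismutases, catalase and sestrins had 1 of 7 tested genes higher and 1 lower (all genes: 16.6% and 15.5%). These were the stress-induced sestrins Sesn2 and Sesn1. Sesn2 rose from 30.3 ± 1.22 to 40.5 ± 3.71 CPM (0.42 on the log2 scale, edgeR adjusted p = 0.0013) and Sesn1 fell from 80.6 ± 4.32 to 53.1 ± 4.21 CPM (SD, n = 3; -0.60, adjusted p = 4.0e-05). In the NADPH oxidase list, whose proteins make superoxide, 0 of 7 were higher and 1 lower (all genes: 16.6% and 15.5%). This was Ncf1, the p47phox subunit, which measured 52.6, 47.0 and 50.8 CPM in Veh against 24.8, 28.9 and 21.1 CPM in GSK (-1.01 ± 0.099 SE on the log2 scale, edgeR adjusted p = 3.5e-05). Ncf1 was the gene of the lists that also passed the test against a fold change of 1.5 (adjusted p = 0.014), and Gtf2ird2 shares 408 exonic bases with it on the other strand.

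ATF4, the factor of the amino acid stress response, controls Slc7a11 together with NRF2. In its list, 0 of 7 tested genes were higher and 4 lower (all genes: 16.6% and 15.5%). The median log2 fold change was -0.36, against -0.0039 for all genes tested. Trib3, Asns and Ddit3 fell by 0.50, 0.35 and 0.55 on the log2 scale, with adjusted p of 2.2e-04, 3.5e-04 and 0.0019 (edgeR). Nupr1 went from 3.94 ± 0.52 to 1.88 ± 0.42 CPM (SD, n = 3), a log2 fold change of -1.06 (adjusted p = 0.0041). Atf4 itself, named after its values were seen, measured 385 CPM in Veh against 395 CPM in GSK (log2 fold change 0.037, adjusted p = 0.61). The ATF4 list does not hold every gene that ATF4 controls, since Slc7a11 stands in another list. Its counts and median thus depend on how the lists were split. In other lists, Sesn2 (log2 fold change 0.42) and Mthfd2 (0.18, adjusted p = 0.022, edgeR) were higher, and Slc7a11 and Slc3a2 did not pass. No test compared the genes of the ATF4 list with the NRF2 pathway genes.

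**Figure D4:**
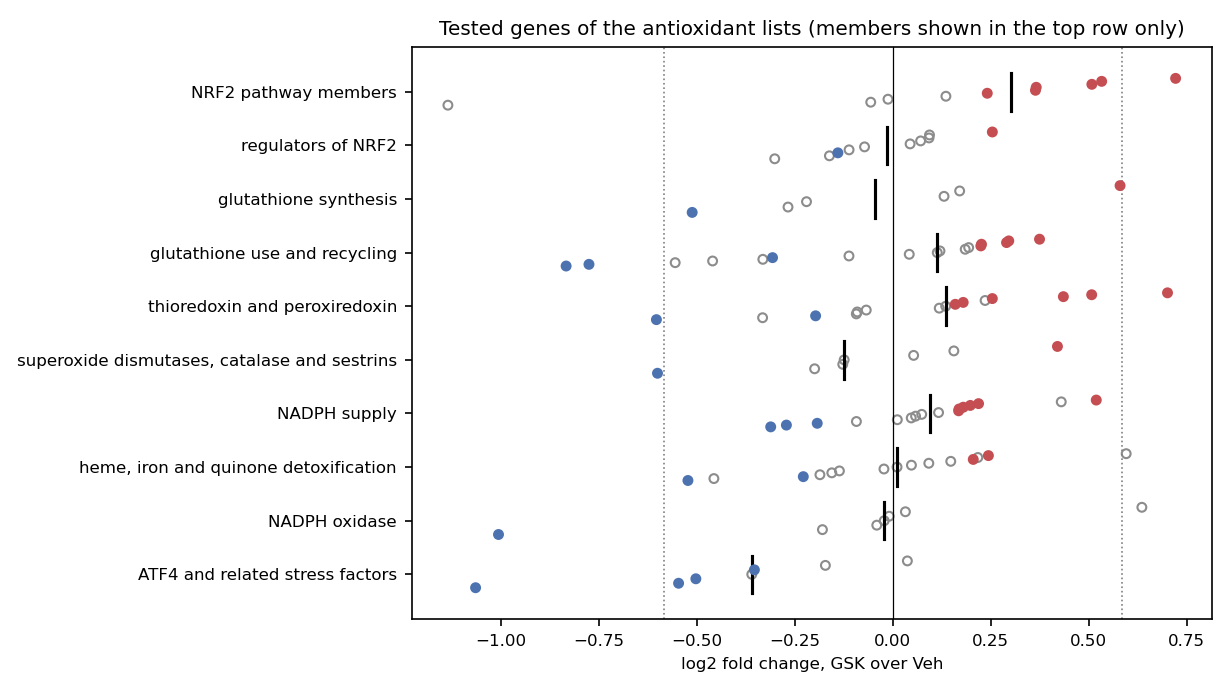
Log2 fold change of GSK over Veh (horizontal axis) for each tested gene of the NRF2 pathway and of 9 wider lists, without repeating its 10 genes in them. Red and blue points were higher and lower at an adjusted p of 0.05, open points did not pass, black bars are medians and dotted lines a fold change of 1.5. The NRF2 genes have the highest median (0.30) and the ATF4 list the lowest (-0.36).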

How the data were processed

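RNA was measured in 3 Veh and 3 GSK cultures, grouped by their sample titles. For each library the authors selected poly(A) RNA, prepared it with a stranded kit, trimmed reads with Trimmomatic, mapped them to GRCm38 with hisat2 (version 2.1.0) and counted reads per gene with HTSeq-count (version 0.11.2). The deposited values are these raw counts, not normalized. The annotation release and the strand setting are not given in the sources used here. The labels give the same replicate numbers in both groups, and the sources leave unstated whether a shared number means a shared mouse, so p-values measure the spread between these cultures.

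GSK was compared with Veh on the counts by edgeR (version 4.0.16, under R version 4.3.3), with TMM scaling, filterByExpr and the robust quasi-likelihood test, with Benjamini-Hochberg adjustment over all genes tested. Standard errors and 95% intervals were derived from the test statistic. Alternatives were DESeq2 (version 1.42.0), 2 other scalings, 2 other filters, the replicate number as a block, a test against a fold change of 1.5 and leaving out each sample. On simulated counts for 11698 genes, edgeR found 72 of 100 genes changed 1.5-fold and 88 of 100 changed 2-fold, and 9 unchanged genes passed. Far more genes, 32.1%, passed in the real counts, so the adjustment differs and this recovery does not carry over directly. Folds under 1.5 were not simulated. An exact permutation test cannot go below p = 0.1 at 3 against 3, so no gene was tested outside the fit over all genes.

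The 10 genes, the lists and the markers were chosen with earlier results of these data known. The summed level of the B cell markers is not reported here. Named genes of the lists were every one past both thresholds and, of each list, up to 4 others with the smallest p among those past the adjusted p, and for Gsr, the gene of the 10 with the smallest p, the 3 genes most correlated with it. Gstp1, Me1, Osgin1 and Pir were named for the joint motif in their windows, after their values were seen. Mthfd2 and Slc3a2 were named beside the ATF4 list, and Glrx2 beside the other glutaredoxins, also after their values were seen. Coordinates, exonic lengths and overlaps came from GENCODE M21 (GRCm38), and promoter windows from RefSeq (GRCm38.p6).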

Additional observations from a re-analysis of the deposited data

How the results depend on the processing

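The rise of Gclc, Gsr, Txnrd1, Srxn1 and Nqo1 stayed past the adjusted p in 12 of 13 alternatives each, the exception being the test against a fold change of 1.5, which no NRF2 pathway gene passed. That test left 0 of the 10 genes, 0 higher and 1 lower of the wider lists and 69 higher and 65 lower of all genes. Over the fits that left out each sample, from 5 to 6 of the 10 genes were higher and from 0 to 1 lower at the adjusted p, and from 1 to 2 higher and from 0 to 1 lower past both thresholds. In the wider lists the same fits gave from 12 to 27 higher at the adjusted p, and from 1 to 2 higher and from 4 to 7 lower past both thresholds, and among all genes from 1288 to 2090 higher at the adjusted p. The log2 fold change of Hmox1 ran from -0.10 without GSK replicate 1 to 0.041 and changed sign without Veh replicate 3 (0.035), without GSK replicate 2 (0.041) and without GSK replicate 3 (0.016), and did not pass in any alternative. With the replicate block, 6 of the 10 genes were higher, as without it, and the adjusted p of Nfe2l2 was 0.030. Among the named genes of the wider lists, the block ended the calls of Sqstm1 (0.055), Blvra (0.075) and Blvrb (0.067). The main fit did not pair the samples, because the sources do not state which cultures share a mouse. The correlation of the deviations of same-numbered samples was -0.052, -0.081 and 0.16, and 2 of 6 samples correlated best with their own number. With 3 samples in each group, these values cannot decide whether samples share a mouse. The median log2 fold change of all genes was -0.0039, and -0.021 with total counts alone. Depth limits Slc7a11 most, at 5 to 39 reads per sample.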
